A study of Drosophila melanogaster with 8 samples.

Results

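The small heat shock protein genes of the fruit fly Drosophila melanogaster were followed in early pupae that had developed in hypergravity. The set holds Hsp22, Hsp23, Hsp26, Hsp27, Hsp67Ba, Hsp67Bb, Hsp67Bc and l(2)efl. It was taken by gene name, not by measured values, and all 8 names were found among the 13918 genes of the expression table. One group of pupae developed at 3 g and the other, the control, at 1 g. Both were of the wild-type strain Canton-S, were kept at 25 °C and were collected at stage P6. Each group had 4 libraries of polyadenylated RNA, each from a pool of 4 whole pupae, and a library is called by its group and replicate number. The labels give neither the sex of the pupae nor whether the pools of a group were reared apart. The p-values therefore describe how these pools vary, which may be partly technical.

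Small heat shock proteins are chaperones that hold unfolded proteins in solution without using ATP, and most share the alpha-crystallin domain. The fly genes of the 67B cluster are known both as heat shock genes, switched on by heat shock factor (Hsf), and as genes that the moulting hormone ecdysone turns on at the start of metamorphosis, without heat. Their products differ in place: Hsp22 works in mitochondria, Hsp23 and Hsp26 in the cytosol and Hsp27 in the nucleus.

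In the Ensembl 115 annotation 7 of the 8 genes lie together on chromosome arm 3L. Their order is Hsp67Bc, Hsp67Bb, Hsp22, Hsp26, Hsp67Ba, Hsp23 and Hsp27, with CG4461 between Hsp22 and Hsp26. The gene l(2)efl lies apart, on chromosome arm 2R. Hsp67Bb is now named CG4456 there, and every exon base of Hsp22 (100.0%) is also annotated as exon of CG4456, on the same strand. Of the exon bases of CG4456, 90.1% are shared with Hsp22. Reads from the shared stretch can come from either gene, so the levels of Hsp22 and Hsp67Bb are uncertain. Hsp67Ba shares 75.9% of its exon bases with an antisense RNA, asRNA:CR43481, and l(2)efl shares 10.1% with St3, on the other strand. The sources used here do not state a strand setting or a genome build for the counting, so these overlaps could not be resolved and no positions are printed.

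None of the 8 genes differed between 3 g and 1 g at the threshold, an adjusted p under 0.05 (limma on log2 of TPM plus 0.5, Benjamini-Hochberg over 12044 genes). The share past that threshold among all tested genes was 4.28%. Hsp67Bb and l(2)efl came closest, Hsp67Bb with its 4 pools at 3 g above all 4 controls and l(2)efl with its 4 pools at 3 g below them. Such separation was seen for 12.5% of all tested genes. The same pair, 2 of the 8, had an unadjusted p under 0.05, as 16.3% of all tested genes had. Counts of 2 in 8 genes are too small to be read against these shares. The median log2 change of the 8 genes was 0.09, against -0.02 for all tested genes, with 6 genes above 0 and 2 below. The other 6 genes overlapped between the groups, with pools of both groups among their high and their low values.

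All levels are in TPM, a transcript abundance scaled by transcript length, so that genes can be compared with one another. Every library was scaled to a total of 1000000 TPM, and its read depth and counting error are therefore unknown. Each library came from whole animals, so fewer cells of a type and less RNA per cell cannot be told apart. The 3 g libraries resembled their group less (mean correlation 0.881 to 0.922) than the controls did (0.922 to 0.961), and 3 g replicate 2 least. Markers of other tissues were measured beside the small heat shock genes. Their summed levels at 3 g and in controls were 6609 to 19226 and 2124 to 4182 TPM for 8 fat body genes, 132 to 178 and 96.8 to 132 TPM for 6 hemocyte genes, 104 to 152 and 153 to 175 TPM for 6 neuronal genes, and 78.8 to 187 and 130 to 185 TPM for 9 female germline genes, with none of these genes at 0 throughout.

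**Figure D1:**
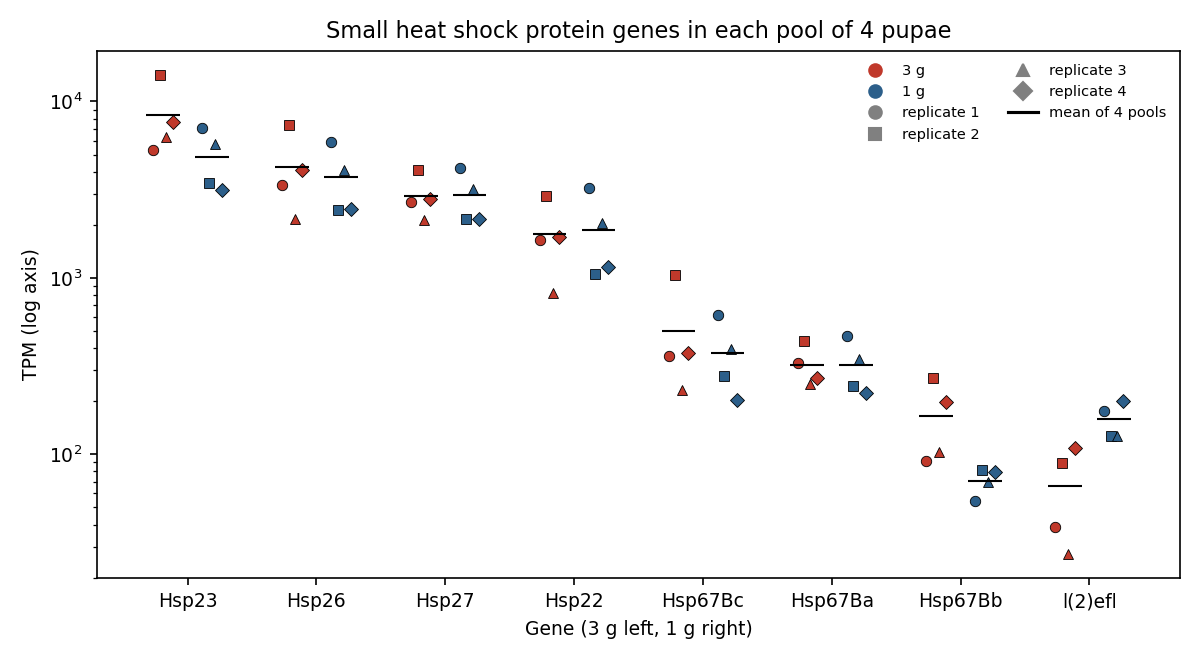
Level of each gene in TPM (log axis), with 3 g pools left and 1 g pools right; each point is 1 pool of 4 pupae and the line is the mean of 4. The groups are separate for Hsp67Bb, where 3 g lies higher, and l(2)efl, where 3 g lies lower, and overlap for the other 6 genes.

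Hsp23, a cytosolic chaperone, was the most abundant of the 8 in every library. It read 5292, 14179, 6308 and 7641 TPM in the pools at 3 g, replicates 1 to 4, and 7107, 3435, 5757 and 3149.9 TPM in the controls. The pool at 14179 TPM, 3 g replicate 2, placed Hsp23 at rank 2 among all 13918 genes. The groups overlapped, with 3 g replicate 1 below 2 of the controls and 3 g replicate 3 below 1. The means were 8355 ± 3999.9 TPM at 3 g and 4862 ± 1898 TPM in controls (SD, n = 4 each). The log2 change was 0.76 ± 0.37 (SE, 95% interval -0.09 to 1.61), which did not pass (adjusted p = 0.381, limma). It was 0.47 without 3 g replicate 2 and 0.97 without control replicate 1.

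Hsp26, also cytosolic, had 3344, 7327, 2163 and 4078 TPM at 3 g and 5866, 2439, 4107 and 2458 TPM in controls. Its highest pool was again 3 g replicate 2 and its lowest 3 g replicate 3, so that both extremes of the 8 libraries fell in the 3 g group. The log2 change was 0.15 (95% interval -0.82 to 1.11, adjusted p = 0.895, limma). It turned to -0.17 without 3 g replicate 2, and to -0.02 without control replicate 2 or 4.

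Hsp27, the nuclear member, had 2692, 4079, 2119.9 and 2789 TPM at 3 g and 4223, 2155, 3210.4 and 2145 TPM in controls. The group means of 2920.1 ± 827 TPM at 3 g and 2933 ± 995 TPM in controls (SD, n = 4 each) were almost the same, and the highest pool was control replicate 1. The log2 change of 0.01 had a 95% interval of -0.62 to 0.65 (adjusted p = 0.990, limma). Its sign turned with the scaling, to -0.01 after median-of-ratios rescaling, and without 3 g replicate 2 (-0.16), control replicate 2 (-0.12) or control replicate 4 (-0.12).

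Hsp22, the mitochondrial member, had 1643, 2894, 824 and 1694 TPM at 3 g and 3233, 1054, 2038 and 1146 TPM in controls. It was the most abundant gene after Hsp27 in all 8 libraries, and its levels spread over 3.51-fold within the 3 g group and 3.07-fold within the controls. The log2 change was -0.07 (95% interval -1.14 to 1.01, adjusted p = 0.961, limma). It was -0.35 without 3 g replicate 2, and the sign turned without 3 g replicate 3 (0.26) and without control replicate 1 (0.25) or 3 (0.03).

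The next pair were less abundant. Hsp67Bc, a chaperone that works with the co-chaperone Starvin in protein clearance by autophagy, had 361, 1044, 231 and 375 TPM at 3 g and 616, 277, 397 and 204 TPM in controls. Its spread of 4.53-fold within the 3 g group was the widest of the 8 genes in either group. The log2 change was 0.31 (95% interval -0.85 to 1.47, adjusted p = 0.808, limma), and it turned to -0.12 without 3 g replicate 2. Hsp67Ba, a cluster gene with an alpha-crystallin domain, had 329, 441, 251 and 269 TPM at 3 g and 468, 244, 347 and 222 TPM in controls. Its group means were 322 ± 85.5 TPM at 3 g and 320.1 ± 112 TPM in controls (SD, n = 4 each), and its log2 change of 0.04 (adjusted p = 0.961, limma) turned to -0.02 after quantile normalization and to -0.12 without 3 g replicate 2, -0.07 without control replicate 2 and -0.12 without control replicate 4.

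Hsp67Bb takes its name from its place in the cluster, since its protein carries a rhodanese-like domain in place of the alpha-crystallin domain. It had 91.9, 271, 103 and 197 TPM at 3 g and 54.1, 81.2, 69.3 and 79.2 TPM in controls. All 4 pools at 3 g lay above all 4 controls, and the lowest of them, replicate 1, lay just above the highest control. The group means were 166 ± 84.6 TPM at 3 g and 70.9 ± 12.4 TPM in controls (SD, n = 4 each), so the pools at 3 g were also the more variable. The log2 change was 1.09 ± 0.35 (SE, 95% interval 0.28 to 1.91), a 2.13-fold difference, with an unadjusted p of 0.0150 that did not pass after adjustment (adjusted p = 0.154, limma). Without 3 g replicate 2 the log2 change was 0.81. Hsp22, which shares 90.1% of the exon bases of Hsp67Bb, did not show this separation. As Hsp22 was far more abundant, its levels cannot show how the shared reads were divided. The ratio of Hsp67Bb to Hsp22 was 0.0559, 0.0936, 0.125 and 0.116 in the 3 g pools and 0.0167, 0.0770, 0.0340 and 0.0691 in the controls, and these ratios overlapped.

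The gene l(2)efl encodes a small heat shock protein related to vertebrate alphaB-crystallin, and its name records that it is essential for life. It had 38.9, 89.1, 27.3 and 108 TPM at 3 g and 176, 127, 126 and 201 TPM in controls. All 4 pools at 3 g lay below all 4 controls. The group means were 65.8 ± 38.9 TPM at 3 g and 158 ± 37.3 TPM in controls (SD, n = 4 each). The log2 change was -1.44 ± 0.44 (SE, 95% interval -2.46 to -0.42), the largest in size of the 8 genes, with an unadjusted p of 0.0115 that did not pass after adjustment (adjusted p = 0.133, limma). Without 3 g replicate 2 the log2 change was -1.66. Its order against Hsp67Bb was exchanged between the groups. It lay below Hsp67Bb in all 4 pools at 3 g and above it in all 4 controls.

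**Figure D2:**
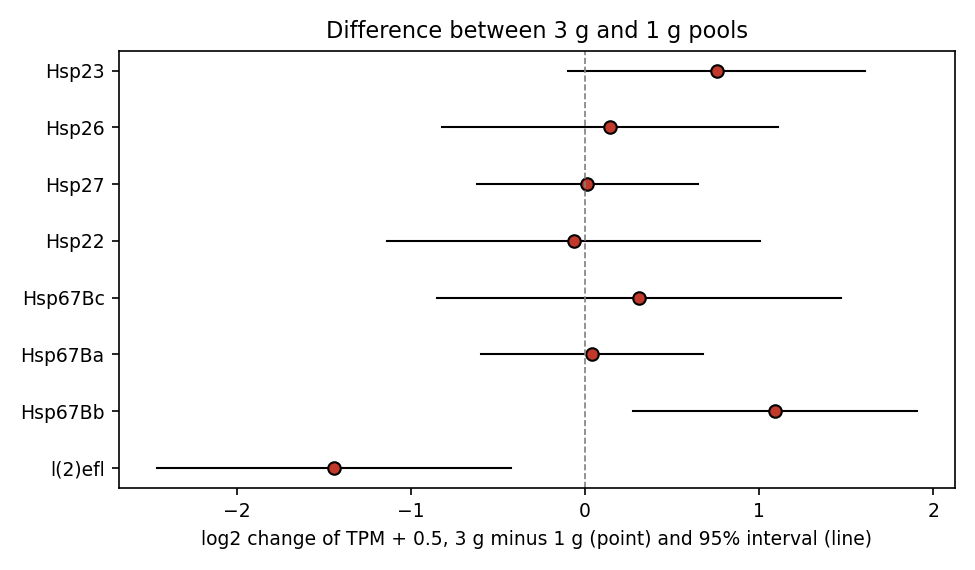
Log2 change of TPM plus 0.5, 3 g minus 1 g, for each gene (point) with its 95% interval from limma (line, not adjusted for the number of genes). The interval lies above 0 for Hsp67Bb and below 0 for l(2)efl and takes in 0 for the other 6, with l(2)efl at -1.44 and Hsp67Bb at 1.09.

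Some sums of marker genes for other tissues were separate between the gravity groups, while the hemocyte, male germline and female germline sums overlapped. The hemocyte sum was mostly that of crq (115 to 156 TPM at 3 g and 82.7 to 116 TPM in controls). Of the 5 hemocyte genes tested, 2 had log2 changes above 0 and 3 below. PPO1 and PPO2 were separate singly, both lower at 3 g. Separation in either direction was seen for 12.5% of all tested genes. PPO2 also passed the threshold (log2 change -0.94, adjusted p = 0.0461, limma). The 18 muscle genes examined, none at 0 throughout, summed to 2172 to 2997 TPM at 3 g and 5300 to 19620 TPM in controls. Their sums were thus separate in the direction of l(2)efl. Singly, 14 of the 18 were separate, against 12.5% of all tested genes. Only Zasp66 had a log2 change above 0 (0.62). Of 19 salivary gland and early prepupal genes, all but ng1, ng2 and ng3 were above 0 in some library, and they summed to 12169 to 31443 TPM at 3 g and 25.0 to 154 TPM in controls, separate in the direction of Hsp67Bb. The fat body sum given above was also separate in the direction of Hsp67Bb, though only 3 of its 8 genes were separate singly. The neuronal sum was narrowly separate in the direction of l(2)efl, with 2 of its 6 genes separate singly. The female germline sum was mostly that of orb, BicD and ovo, and its other genes each read at most 5.00 TPM. In 3 g replicate 2 orb read 13.5 TPM, against 67.5 to 88.7 TPM in the other pools at 3 g. That pool was also the lowest for the male germline sum, so the female germline sum is a weak measure of that tissue. The part of tissue make-up or stage in the values of l(2)efl and Hsp67Bb was not tested.

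From the most to the least abundant, the order of the first 4 genes, Hsp23, Hsp26, Hsp27 and Hsp22, was the same within each of the 8 libraries. The spreads of neighbours in that order nevertheless overlapped between libraries. Hsp67Bc lay above Hsp67Ba in 6 of 8 libraries, 3 in each group, so this pair was not ordered beyond its spread. Summed over the 8 genes, the small heat shock transcripts made up 1.38%, 3.03%, 1.20% and 1.72% of all TPM at 3 g and 2.17%, 0.981%, 1.61% and 0.961% in controls. The highest sum was that of 3 g replicate 2 and the groups overlapped.

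The make-up of this sum was separate between the groups for 3 of the 8 genes, Hsp23, Hsp26 and l(2)efl. There is no like count over all tested genes, so this count is not read as a result about the 8. Hsp23 took 38.4%, 46.8%, 52.5% and 44.6% of the sum at 3 g and 32.7%, 35.0%, 35.9% and 32.8% in controls. All 4 pools at 3 g lay above all 4 controls in this share. The share of Hsp26 lay lower at 3 g, with 24.3%, 24.2%, 18.0% and 23.8% at 3 g and 27.0%, 24.9%, 25.6% and 25.6% in controls, again without overlap. The ratio of Hsp23 to Hsp26 within a library was 2.08 ± 0.58 at 3 g and 1.33 ± 0.0960 in controls (SD, n = 4 each), from 1.58 to 2.92 at 3 g and from 1.21 to 1.41 in controls. The share of l(2)efl was also separate, at 0.23% to 0.63% at 3 g and 0.79% to 2.1% in controls. The shares of the other 5 genes overlapped, with Hsp27 at 13.5% to 19.5% at 3 g and 19.4% to 22.3% in controls, and Hsp22 at 6.85% to 11.9% at 3 g and 10.7% to 14.9% in controls. Hsp67Bc had 1.92% to 3.44% at 3 g and 2.12% to 2.83% in controls, Hsp67Ba 1.45% to 2.38% at 3 g and 2.15% to 2.49% in controls, and Hsp67Bb 0.67% to 1.15% at 3 g and 0.25% to 0.83% in controls. The shares sum to a whole, so one that is larger lowers the rest, and the Hsp23 to Hsp26 ratio was chosen after its values were seen and has no test.

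**Figure D3:**
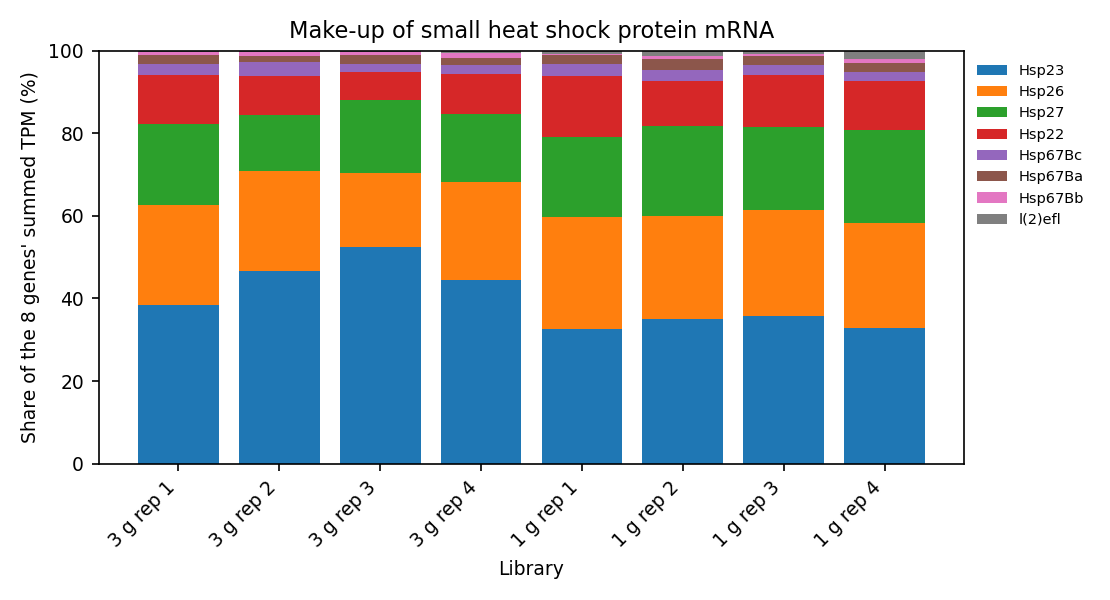
Share of the summed TPM of the 8 genes taken by each gene, in percent, in the 4 pools at 3 g (left) and the 4 pools at 1 g (right). The bottom segment, Hsp23, spans 38.4% to 52.5% at 3 g and 32.7% to 35.9% at 1 g.

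The pools within a group differed widely. Of the 4 pools at 3 g, replicate 2 was the highest for 7 of the 8 genes, with l(2)efl the exception, and replicate 3 was the lowest for 6. Among the controls replicate 1 was the highest for 6 of the 8 genes and the lowest for Hsp67Bb. The within-group SD on the log2 scale ran from 0.43 for Hsp67Ba to 0.81 for Hsp67Bc, which placed the genes between the percentiles 66.6 and 82.6 of all tested genes in spread. In 3 g replicate 2, the 17 male germline genes examined, none at 0 throughout, summed to 1008 TPM, against 5467 to 5872 TPM in the other pools at 3 g and 3689 to 8304 TPM in controls. The part of this pool's make-up in its high small heat shock levels was not tested, and the log2 change without it is given above for each of the 8 genes.

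The heat-inducible Hsp70 genes, whose proteins refold what small heat shock proteins hold, followed the same pools. They are near-identical copies among which reads are divided uncertainly, so their sum is given. The sum of 6 Hsp70 genes was 8388, 10431, 3780.4 and 9709 TPM at 3 g and 14711, 5394, 9790 and 6616 TPM in controls. These genes are known for low levels in unstressed flies, and their sum was high in all 8 libraries, the controls included. Hsp70Ba added at most 2.77 TPM to it in any library. The sum was lowest in 3 g replicate 3 and highest in control replicate 1, and the groups overlapped. Relative to this sum, Hsp22 held a narrow band, at 19.6%, 27.8%, 21.8% and 17.5% at 3 g and 22.0%, 19.5%, 20.8% and 17.3% in controls. Hsp23 did not, at 63.1%, 136%, 167% and 78.7% at 3 g and 48.3%, 63.7%, 58.8% and 47.6% in controls, with 3 g replicate 1 alone inside the range of the controls.

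**Figure D4:**
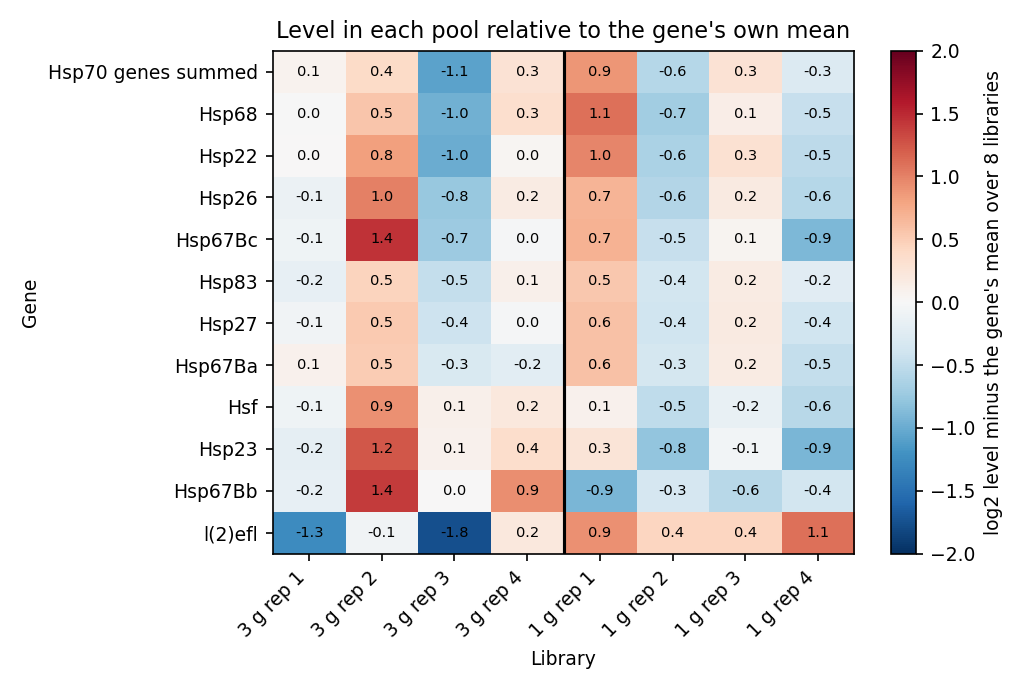
Level of each gene in each library as log2 of TPM plus 0.5 minus the gene's own mean over the 8 libraries (colour and printed value), with 3 g pools left of the black line and 1 g pools right. The rows from the summed Hsp70 genes to Hsp67Ba are high in 3 g replicate 2 and control replicate 1. These rows are low in 3 g replicate 3 and in control replicates 2 and 4. Hsp67Bb and l(2)efl split by group.

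Outside the 8 genes, those with the most similar pattern over the 8 libraries were sought by the root mean square distance between log2 levels, each centred on its own mean, among genes averaging 5 TPM or more. For Hsp22 they were the heat-inducible Hsp68 (distance 0.16) and Hsp70Bc (0.18, a single copy with uncertain reads), for Hsp27 the Hsp90 gene Hsp83 (0.09) and CG9821 (0.12), and for Hsp67Ba CG9821 (0.08) and Magi (0.14). Hsp26 was, outside the 8, nearest to brummer (bmm), a lipase of fat storage (0.19), and CG5346 (0.22), and Hsp67Bc to CG5346 (0.32) and Hers (0.33). For Hsp23 the nearest gene was Hsf itself (0.22), followed by CG43179 (0.23). Hsp67Bb had CG30088 (0.27) and CG42566 (0.28), and l(2)efl had Idgf5 (0.27) and CG8854 (0.38). Among the 8 genes the closest pair was Hsp27 and Hsp67Ba (0.10), Hsp22 was nearest to Hsp26 (0.17), Hsp67Bc was nearest to Hsp26 (0.22), and l(2)efl was far from all, at 0.92 from Hsp27. The distances of Hsp26 and Hsp67Bc to these members were smaller than those to any gene outside the 8.

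Other chaperone genes gave no gene past the threshold. Of 39 genes tested, 0 were higher and 0 lower by adjusted p (limma). Without adjustment, p was under 0.05 for 1 gene higher at 3 g, Hsf, and for 4 genes lower, Hsp60, CG13133, CG7409 and CG11267. The share of all tested genes with such a p, in either direction, was 16.3%. Without control replicate 4, CG11267 alone passed, as lower. The median log2 change of the 39 genes was -0.10. Hsf, the factor that activates heat shock genes, had 66.6, 134, 76.0 and 82.3 TPM at 3 g and 74.9, 49.6, 63.6 and 47.8 TPM in controls. Its log2 change of 0.57 did not pass (adjusted p = 0.305, limma), and 3 g replicate 2 was again the highest pool. The mitochondrial chaperonin Hsp60 had 163, 164, 128 and 159 TPM at 3 g and 203, 256, 229 and 165 TPM in controls, without overlap (log2 change -0.46, adjusted p = 0.190, limma).

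The 5 other genes with an alpha-crystallin domain gave 0 past the threshold. The unadjusted p was under 0.05 (limma) for 2, CG13133 and CG7409, both lower. Such a p was seen for 16.3% of all tested genes, in either direction. The most abundant of the 5, CG14207, had 133 to 214 TPM at 3 g and 148 to 254 TPM in controls. CG13133 had 1.01 to 1.43 TPM at 3 g and 1.66 to 4.26 TPM in controls, without overlap (log2 change -0.75, adjusted p = 0.227, limma). These levels are near the minimum of 1 TPM for testing. CG7409 had 0.30 to 2.71 TPM at 3 g and 2.07 to 16.1 TPM in controls, with overlap (log2 change -1.62, adjusted p = 0.248, limma). CG4461, which lies inside the 67B cluster between Hsp22 and Hsp26, had 9.12, 12.9, 5.59 and 4.20 TPM at 3 g and 9.55, 7.02, 7.20 and 3.84 TPM in controls. It was thus far below the genes on either side of it.

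The protein-coding genes just outside the cluster were examined as well. They were CG4447, Klp67A, CG4452 and Fdxh before Hsp67Bc and CG4080, eIF-4E, Cpr67B and CG4022 after Hsp27. With CG4461, these 9 genes had group means from 2.31 TPM for Cpr67B to 350.6 TPM for eIF-4E, the translation initiation factor, and log2 changes from -0.17 to 0.25. None passed the threshold and none had an unadjusted p under 0.05 (limma, adjusted p from 0.571 to 0.979).

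Genes of the ecdysone response were set beside the cluster because the hormone regulates it. Of 15 tested, 2 were higher at 3 g, 0 lower and 13 not past the threshold (limma). Among all tested genes 4.28% passed, in either direction. The pair that rose were the transcription factor genes br (46.8 to 128 TPM at 3 g and 6.48 to 14.6 TPM in controls) and ftz-f1 (44.9 to 92.4 TPM at 3 g and 7.79 to 27.0 TPM in controls). The rise of ftz-f1 did not pass without 3 g replicate 1 or 2 or without control replicate 1, 2 or 3 (adjusted p from 0.05 to 0.0822, limma). The genes of the receptor itself did not pass, with EcR at 33.7 to 73.3 TPM at 3 g and 40.3 to 79.9 TPM in controls, and its partner usp at 33.1 to 42.9 TPM at 3 g and 20.8 to 35.0 TPM in controls. Neither gene had groups that were separate.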

How the data were processed

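Whole-pupa RNA was sequenced in 8 libraries, 4 at 3 g and 4 at 1 g, on 1 lane, grouped by the labels. The tools in the submitters' processing notes are Trimmomatic 0.30, eXpress 1.5.1, Bowtie2 2.1.0, DESeq and CASAVA, and their roles are not stated there. The deposited table holds whole numbers, treated as a score and read as TPM times 100, because the table is named normalized TPM and each column sums to 1000000 after division by 100. The sources used here do not say whether the authors scaled it further.

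The 12044 genes averaging 1 TPM or more were tested on log2(TPM + 0.5) by limma 3.58.1 (R 4.3.3). The fit held the 2 groups alone, its variance prior followed the mean level, and the Benjamini-Hochberg method adjusted the p-values. The model was tested on simulated data, where it called 24 of 50 genes changed 2-fold and 35 of 50 changed 4-fold. Figures used matplotlib 3.10.9 in Python 3.11.15. Gene order, strand and exon sharing came from Ensembl 115 and names from RefSeq. The alternatives were pseudocounts of 0.1 and 1, no filter, a minimum of 5 TPM, 2 other scalings, no trend, a robust fit, the replicate number as a block and each library left out. The summed Hsp70 level as a covariate was added after seeing the data. The members and gene lists were chosen with earlier results of these data known. Genes are named by rule: all members, Hsf and the 2 other chaperones with the smallest p, EcR, usp and ecdysone genes past the threshold, the cluster's neighbours and 2 nearest genes in pattern per member. Other genes named were chosen after their values were seen.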

Additional observations from a re-analysis of the deposited data

Results flagged for a closer look

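A library was looked at again where its gap to the nearest of its group exceeded Dixon's 95% critical share of the group's range, a bound that chance passes in about 1 in 20 groups of 4. None of the 16 groups of the small heat shock genes was picked out. Of 92 groups in all, from genes named with a value of their own, 10 were. Some of these genes were named for their values or for their likeness to a member. The count therefore cannot be read against 1 in 20. At 3 g, Hsp60 read 128 TPM in replicate 3 against 159 to 164 TPM in the others, CG4080 61.8 TPM in replicate 4 against 45.4 to 47.0 TPM, and Cpr67B 6.84 TPM in replicate 1 against 1.41 to 1.81 TPM. In 3 g replicate 2, CG9821 read 317 TPM against 194 to 213 TPM in the others and Hers 50.7 TPM against 20.6 to 22.9 TPM. In the same pool Hsc70-2 read 18.2 TPM against 92.5 to 99.1 TPM, Hsp60B 22.1 TPM against 148 to 166 TPM and Hsp60D 6.19 TPM against 39.5 to 42.2 TPM, and these 3 were chosen after their values were seen. In control replicate 4, CG4022 read 22.0 TPM against 29.6 to 30.6 TPM in the other controls and Idgf5 21.3 TPM against 11.0 to 12.5 TPM.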

How the results depend on the processing

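In all 18 alternatives 0 of the 8 genes passed the threshold (limma), with 2 or 3 at an unadjusted p under 0.05. Hsp67Bb stayed above 0 (0.81 to 1.32 with 1 library left out) and l(2)efl below 0 (-1.75 to -1.09), with adjusted p from 0.0859 to 0.334 and from 0.0831 to 0.287 over all alternatives. Hsp23 stayed above 0 (0.47 to 0.97), with adjusted p from 0.158 to 0.685 over all alternatives (limma). Its unadjusted p was under 0.05 without 3 g replicate 1 or control replicate 1 and with the summed Hsp70 level as a covariate. With 1 library left out, log2 changes spanned 0 for Hsp22 (-0.35 to 0.26), Hsp26 (-0.17 to 0.42), Hsp27 (-0.16 to 0.21), Hsp67Ba (-0.12 to 0.24) and Hsp67Bc (-0.12 to 0.60). Signs also turned for Hsp27 after median-of-ratios rescaling (-0.0149), Hsp67Ba after quantile normalization (-0.0203) and Hsp22 with the Hsp70 covariate (0.12), and the cause was not tested.

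Genes past the threshold numbered 516, and 162 to 479 with 1 library left out, the lowest without control replicate 2 (162) and 3 (206). Other chaperones lower numbered 0 to 1 with 1 library left out, the 1 being CG11267 without control replicate 4. Replicate numbers did not pair the samples (correlations of deviations -0.52 to 0.08, needed over 0.1 in each pair). With the replicate block 147 genes passed, 0 of the 8 among them, and br and ftz-f1 did not pass. TPM keeps no depth, so counting error is unknown at every level.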

Other observations

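Chaperone genes went both ways in the pool where the summed small heat shock level was highest, 3 g replicate 2. Hsp68, Hsp83, Hsc70-3, Hsc70-4, stv and Hop each had their highest level among the pools at 3 g there, while the chaperone genes below were low. In 3 g replicate 2 the chaperonin genes Hsp60B, Hsp60C and Hsp60D read 22.1, 46.1 and 6.19 TPM, against 148 to 166, 236 to 278 and 39.5 to 42.2 TPM in the other pools at 3 g and 97.9 to 202, 165 to 346 and 25.8 to 58.8 TPM in controls. Hsc70-2 read 18.2 TPM there and 92.5 to 99.1 TPM in the others, with 59.9 to 122 TPM in controls. The alpha-crystallin gene CG43851 read 3.62 TPM there and 21.0 to 26.3 TPM in the others, with 11.6 to 28.4 TPM in controls. The same pool had the lowest sum of the 17 male germline genes (1008 TPM). The chaperone genes named here, high or low, were chosen after their values were seen.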
